A study of Mus musculus with 6 samples.

Results

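The miR-135 family of the mouse was described in small RNA-seq libraries from the brain of wild-type C57BL/6 embryos at E15.5, a stage of embryonic life in which cortical neurons are born. Its members were the mature arms of 3 precursors, miR-135a-1, miR-135a-2 and miR-135b, taken by exact name from the deposited miRNA lists: mmu-miR-135a-5p, mmu-miR-135a-1-3p, mmu-miR-135a-2-3p, mmu-miR-135b-5p and mmu-miR-135b-3p. These were 5 of the 1915 mature miRNAs listed, and all 5 were among the 1120 that had at least 10 reads over all libraries. The study asked whether miRNA levels differ between the sexes, and sequenced 3 female and 3 male libraries from whole brain. No genotype other than wild-type and no treatment was involved. Each library was made from RNA pooled over 2 to 3 sexed embryos, so the tests below measure the spread between pools, and a lower level in such bulk RNA cannot be told apart between fewer expressing cells and less RNA per cell.

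A miRNA precursor folds into a hairpin that is cut into a 5p and a 3p arm, and the arm that is loaded into an Argonaute protein represses messenger RNAs that pair with its seed, bases 2 to 8. The miR-135 family is known for repressing Apc, an inhibitor of Wnt signalling, for acting with Lmx1b and Wnt1 in the midbrain, and for repressing the serotonin transporter in raphe neurons. It is also studied in cortex development and neuron migration.

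The total number of reads assigned to miRNAs ranged from 14802675 to 59362011 per library, and the family took 0.431% to 0.692% of them in females and 0.262% to 0.290% in males. Female library 2 stood apart, since it was the deepest library but had reads for 660 miRNAs, against 790 to 915 in the other libraries, with a median of 1846.5 reads per detected miRNA. The summed level of 3 brain miRNAs (miR-9-5p, miR-124-3p and miR-128-3p) was 193094 to 211713 reads per 1000000 reads of the library total (CPM) in females and 162351 to 187853 in males, without overlap, though none of the 3 passed the test described below. Most of that brain sum was miR-9-5p. miR-9-5p and miR-124-3p did not overlap between the sexes, whereas miR-128-3p did. miRNA markers of other tissues differed between the sexes. The summed CPM of 6 hindbrain and spinal cord miRNAs was 8951 to 12763 in females and 1770 to 2187 in males, with 4 of 6 lower in males past that test, and miR-196a-5p and miR-196b-5p at 0 in 4 libraries each. The sum ranged from 388 to 1180 in females and from 5497 to 6139 in males for skeletal muscle (4 of 4 higher in males), from 429 to 1133 and from 7990 to 8284 for epithelium (5 of 6 higher, with miR-141-3p at 0 in female library 2), and from 4459 to 12438 and from 19184 to 22960 for mesenchyme (4 of 4 higher). For red blood cells it ranged from 646 to 1354 in females and from 1595 to 1972 in males (1 of 3 higher). Most of that sum was miR-486a-5p, whose levels overlapped between the sexes in the scaling of that test. miR-451a and miR-144-3p overlapped as well and did not pass, with log2 fold changes of male over female of 0.18 and -0.97. The part of these tissues in the results on the miR-135 family was not tested.

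The mature sequences are shown because they separate the arms that the precursors share from those that tell the precursors apart. They were taken from RefSeq (GRCm38.p6), in which 4 of the 5 members were matched, and are written 5′ to 3′ with the seed in capitals.
mmu-miR-135a-5p: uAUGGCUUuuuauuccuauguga
mmu-miR-135a-1-3p: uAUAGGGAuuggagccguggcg
mmu-miR-135a-2-3p: uGUAGGGAuggaagccaugaa
mmu-miR-135b-3p: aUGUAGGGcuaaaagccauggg
Both miR-135a precursors carry the same 5p arm, so reads of mmu-miR-135a-5p do not show which precursor they came from. The 3p arms differ. Without gaps, mmu-miR-135a-1-3p and mmu-miR-135a-2-3p were identical at 15 of 21 bases, mmu-miR-135a-1-3p and mmu-miR-135b-3p at 14 of 21, and mmu-miR-135a-2-3p and mmu-miR-135b-3p at 16 of 21, the last pairs being shifted by 1 base. No seed was shared between the 4 matched members, and no other mature miRNA of the reference had any of the 4 seeds. The unmatched member, mmu-miR-135b-5p, was outside that search, and both 5p arms carry the family seed.

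The precursors lie on 3 chromosomes (mm9, NCBIM37, with GENCODE vM1 annotation). Mir135a-1 lies on the plus strand at chr9:106056455-106056544, in an intron of the long non-coding RNA D030055H07Rik on the same strand, and overlaps exonic sequence of Glyctk on the opposite strand. Mir135a-2 lies on the minus strand at chr10:91534831-91534930, between genes, and the nearest gene was the long non-coding RNA Rmst, which ended 9561 bases upstream of it. Mir135b lies on the plus strand at chr1:134094665-134094761, in an intron of Lemd1 on the same strand.

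The 5p arms were the abundant members. mmu-miR-135a-5p ranked 65 by mean CPM among all miRNAs and mmu-miR-135b-5p ranked 90, whereas mmu-miR-135a-2-3p, mmu-miR-135a-1-3p and mmu-miR-135b-3p ranked 185, 191 and 350. Reads carry no molecular identifiers, so intervals below cover counting error only.

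mmu-miR-135a-5p had 52331, 137212 and 156246 reads in female libraries 1 to 3, or 3535, 2311 and 4364 CPM. It had 25149, 62698 and 37216 reads in male libraries 1 to 3, or 1346, 1428 and 1575 CPM. All female libraries were above all male libraries, the means being 3404 ± 1033 CPM (SD, n = 3) in females and 1449.5 ± 116 CPM (SD, n = 3) in males.

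mmu-miR-135b-5p followed the same order. Its level was 1867, 1325 and 2173 CPM in female libraries 1 to 3, from 27630, 78651 and 77783 reads. In male libraries 1 to 3 it was 782, 831 and 874 CPM, from 14618, 36490 and 20661 reads. The lowest female library was again female library 2, and the groups did not overlap, at 1788 ± 429 CPM (SD, n = 3) in females and 829 ± 46.0 CPM (SD, n = 3) in males.

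The 3p arms of miR-135a lay far lower and overlapped between the sexes. mmu-miR-135a-1-3p had 190.5, 376 and 160.1 CPM in female libraries 1 to 3 and 224, 210.0 and 193 CPM in male libraries 1 to 3. Female library 2 was the highest of the 6 and female library 3 the lowest. mmu-miR-135a-2-3p was even across libraries, at 242, 266 and 193 CPM in females and 238, 259 and 233 CPM in males. The mean levels of these arms over the 6 libraries differed by less than their spread. Within a library, mmu-miR-135a-2-3p had the higher level in all but female library 2.

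mmu-miR-135b-3p was the least abundant member. It had 29.7, 33.6 and 32.4 CPM in female libraries 1 to 3 and 29.4, 18.6 and 29.3 CPM in male libraries 1 to 3. The groups were separated only by the small gap between female library 1 and male library 1, and the exact Poisson 95% interval of female library 1, 26.9 to 32.6 CPM, held both. The lowest library, male library 2, had 817 reads and an interval of 17.3 to 19.9 CPM.

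**Figure D1:**
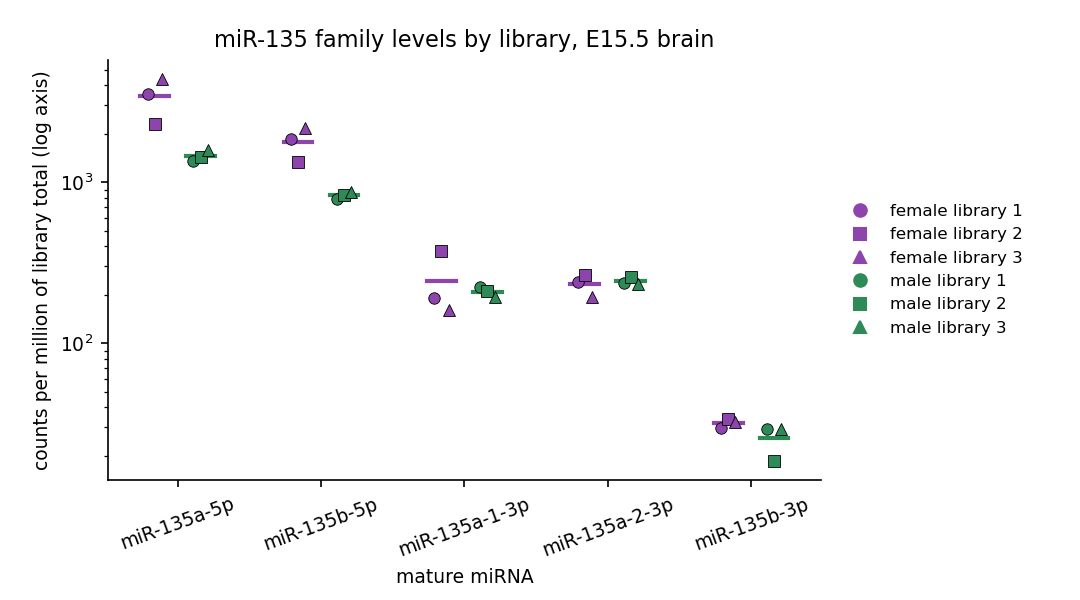
Level of each miR-135 family member (CPM of the library total, log axis) in each of the 3 female (purple) and 3 male (green) libraries; horizontal bars are group means and marker shapes give the library number. The 5p arms lie higher in all female than in all male libraries, and the 3p arms of miR-135a overlap between the sexes.

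Both 5p arms were lower in males than in females, and no 3p arm passed the test. In edgeR's quasi-likelihood test over all 1120 miRNAs, with TMM scaling and Benjamini-Hochberg adjustment, mmu-miR-135a-5p had a log2 fold change of male over female of -1.34 (SE 0.22, adjusted p = 0.00013). mmu-miR-135b-5p had -1.22 (SE 0.20, adjusted p = 0.00015). These are 2.53-fold and 2.33-fold lower levels in males. The call of mmu-miR-135a-5p was lost when base composition was modelled (adjusted p = 0.0880 in edgeR with the GC offset described below), and mmu-miR-135b-5p was not in that fit.

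The 3p arms had log2 fold changes closer to 0 with wide errors. In the same edgeR test mmu-miR-135a-1-3p had -0.37 (SE 0.27, adjusted p = 0.480) and mmu-miR-135b-3p had -0.46 (SE 0.36, adjusted p = 0.488). mmu-miR-135a-2-3p had -0.07 (SE 0.21, adjusted p = 0.897), and its sign turned to 0.06 with library totals in place of TMM. A difference in these arms was not detectable at this spread between pools, which does not show that they were equal.

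The family thus had 2 of 5 members past the adjusted threshold of 0.05, both lower in males. Over all miRNAs, 95 of 1120 passed (8.48%), with 59 lower in males (5.27%) and 36 higher. Among the 59, mmu-miR-135a-5p ranked 22 by size of fold and mmu-miR-135b-5p ranked 27. The 1120 miRNAs had to reach only 10 reads over all libraries. In the edgeR fit of the 550 with at least 10 reads in every library, which held all 5 members, 97 passed. Of these, 68 were lower in males and 29 higher. In TMM-scaled CPM, 3 of the 5 members (the 5p arms and mmu-miR-135b-3p) did not overlap between the sexes, against 267 of 1120 miRNAs (23.8%). With library totals in place of TMM, the median log2 fold change of all miRNAs moved by 0.12 and the calls were split into 39 lower and 50 higher in males, with both 5p arms still past the threshold and lower in males (log2 fold changes of -1.23 and -1.11).

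mmu-miR-135a-5p stayed lower in males with each library left out in turn, at log2 fold changes of -1.51 to -1.14, and mmu-miR-135b-5p did so at -1.35 to -1.07. Both passed the edgeR test in all 6 of these fits, with the highest adjusted p at 0.0396 and 0.0373, in each case without male library 1. Without female library 2, whose levels of the 5p arms were the nearest to the males, the log2 fold changes were the largest of these fits.

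**Figure D2:**
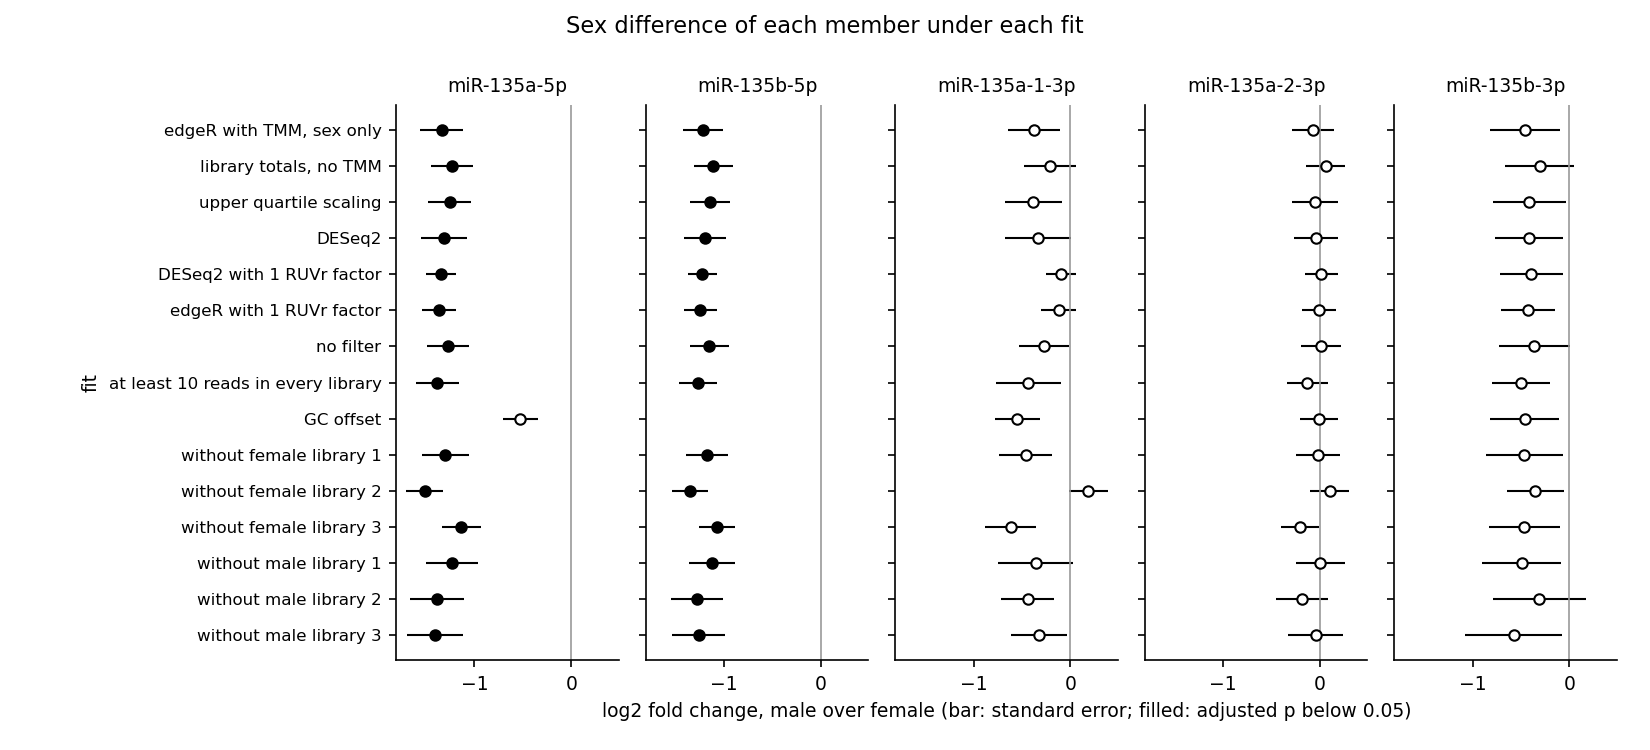
Log2 fold change of male over female (horizontal axis; bars are standard errors) of each member in the edgeR test with TMM and in the other fits (vertical axis); filled circles have an adjusted p below 0.05. The 5p arms are filled in each fit shown except miR-135a-5p with the GC offset, at -0.53, and no 3p arm is filled; miR-135b-5p has no point in the GC offset fit.

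The log2 fold change rose with the GC content of the mature sequence, with much scatter (Pearson r = 0.317 over the 474 miRNAs below). mmu-miR-135a-5p lay at the low end of GC content. Its 23 bases hold 30.4% G and C, against 59.1% in mmu-miR-135a-1-3p, 50.0% in mmu-miR-135b-3p and 47.6% in mmu-miR-135a-2-3p. Among 474 miRNAs with a sequence and 100 or more reads on average, those with 30% to 40% GC had a median log2 fold change of -0.79 (78 miRNAs, quartiles -1.23 and -0.31), and 25 of them passed the test as lower in males and 3 as higher. The median was -0.24 for 40% to 50%, 0.16 for 50% to 60%, and 0.20 for 60% to 70%.

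A GC-content offset for every library was fitted on the 474 miRNAs with a sequence and 100 or more reads on average. It was applied to the 951 tested miRNAs that had a sequence. With it mmu-miR-135a-5p had a log2 fold change of -0.53 (SE 0.18) and missed the edgeR threshold (adjusted p = 0.0880). Under that offset the median of the band from 30% to 40% GC was -0.14. The band medians come from the miRNAs used in the fit, so their flattening follows from it. In the same edgeR fit mmu-miR-135a-1-3p had -0.55 (adjusted p = 0.205). Whether the relation with GC content arose in the tissue or in the libraries was not tested.

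**Figure D3:**
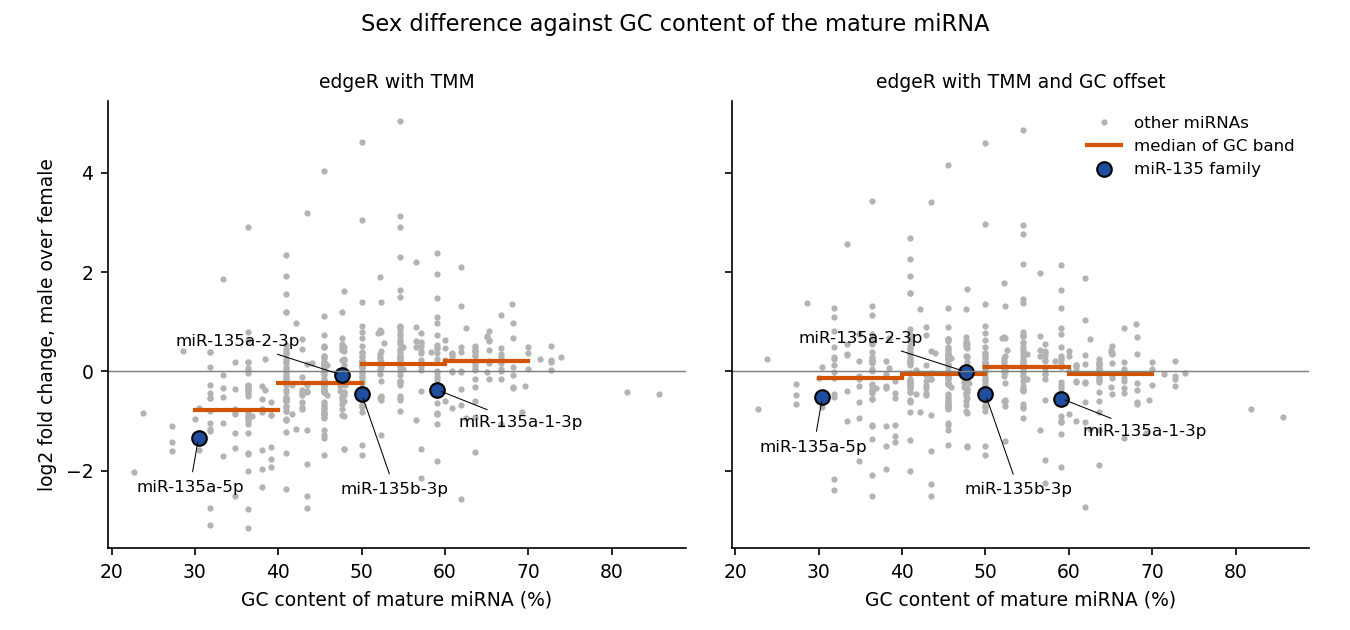
Log2 fold change of male over female (vertical axis) against the GC content of the mature miRNA (horizontal axis, %) for 474 miRNAs (grey) and 4 miR-135 family members (blue), in the edgeR test with TMM (left) and with an added GC offset (right). Orange lines are medians of 10-point GC bands holding at least 20 miRNAs; at left they climb from -0.79 to 0.20, at right they lie between -0.14 and 0.09, and miR-135a-5p moves from -1.34 to -0.53. The offset was fitted on the miRNAs shown, so flatter medians at right follow from the fit.

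Ratios within a library do not depend on its depth or scaling. 4 of them, and the summed level of the 5p arms, were compared between the sexes in 5 two-sided exact permutation tests, for which 3 against 3 libraries cannot give a p below 0.1. The summed level of both 5p arms was 5402, 3636 and 6537 CPM in female libraries 1 to 3 and 2129, 2258 and 2449 CPM in male libraries 1 to 3. All females were above all males, and the difference of mean log2 levels, male minus female, was -1.15 (exact permutation p = 0.1, adjusted 0.25), the smallest p the design allows.

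The balance of the 5p arms varied little. Reads of mmu-miR-135a-5p exceeded those of mmu-miR-135b-5p by ratios of 1.89, 1.74 and 2.01 in female libraries 1 to 3 and of 1.72, 1.72 and 1.80 in male libraries 1 to 3. mmu-miR-135a-5p therefore held 63.2% to 66.8% of the 5p reads in every library. The sequence of mmu-miR-135b-5p was not matched, and whether reads of either 5p arm were counted for the other was not tested. The log2 ratios of the sexes overlapped and differed by -0.11 (exact permutation p = 0.2, adjusted 0.25).

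The 5p arms exceeded the 3p arms in every library, by ratios that were higher in some females. For miR-135b the ratio of 5p to 3p reads was 62.9, 39.4 and 67.1 in female libraries 1 to 3 and 26.6, 44.7 and 29.9 in male libraries 1 to 3. Male library 2 exceeded female library 2, so the groups overlapped (log2 difference -0.74, exact permutation p = 0.2, adjusted 0.25). For miR-135a the ratio of 5p reads to the summed 3p reads of both precursors was 8.18, 3.61 and 12.4 in females and 2.91, 3.05 and 3.70 in males. Female library 2 lay within the male range, and the groups overlapped (log2 difference -1.16, exact permutation p = 0.2, adjusted 0.25). Without female library 2 the miR-135a difference was -1.65, and without female library 3 it was -0.76.

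Other precursors also had arms with unequal folds. The 5p fold of miR-135b was lower than its 3p fold by 0.76 on the log2 scale (difference of -0.76), and that of miR-135a differed from mmu-miR-135a-1-3p by -0.97 and from mmu-miR-135a-2-3p by -1.27. Of 160 precursors with both arms averaging 100 or more reads, 52 (32.5%) had a difference at least as large as miR-135b in either direction, and the median size was 0.48. These differences are from the fit without the GC offset, and the miR-135a arms differ in GC content. With that offset mmu-miR-135a-5p had -0.53, mmu-miR-135a-1-3p had -0.55 and mmu-miR-135a-2-3p had -0.007. The part of GC content in the arm differences was not tested.

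The 3p arms, which differ in sequence, were set against each other as shares of their reads. How these shares relate to the amounts of the precursors was not tested. mmu-miR-135a-1-3p made up 44.1% (95% Wilson interval 42.9 to 45.3), 58.6% (58.1 to 59.1) and 45.3% (44.5 to 46.2) of the miR-135a 3p reads in female libraries 1 to 3. The share was 48.5% (47.5 to 49.6), 44.8% (44.1 to 45.5) and 45.3% (44.4 to 46.3) in male libraries 1 to 3. mmu-miR-135a-2-3p was the larger in 5 of 6 libraries, and female library 2 was the exception. The sexes overlapped, with a difference of -3.10 percentage points, male minus female (exact permutation p = 0.9, adjusted 0.9), which became 1.53 points without female library 2.

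**Figure D4:**
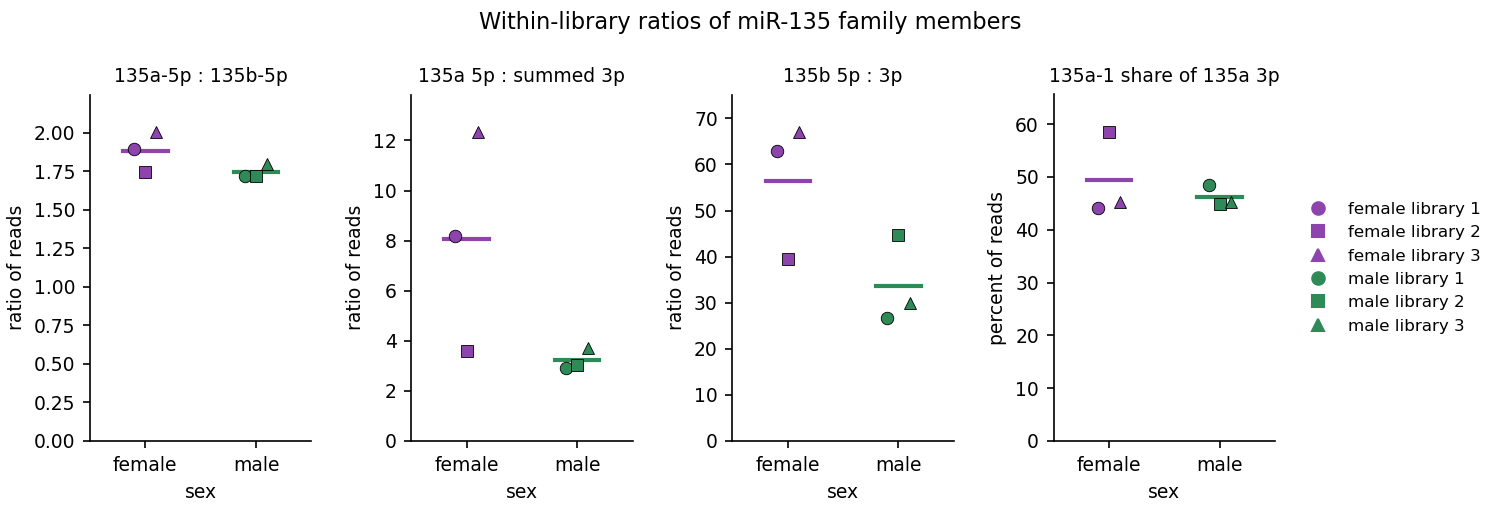
Ratios of reads within each library (vertical axes, linear from 0; last panel in percent) in the 3 female (purple) and 3 male (green) libraries; bars are group means. The ratio of miR-135a-5p to miR-135b-5p spans 1.72 to 2.01, the ratios of 5p to 3p reads overlap between the sexes, and female library 2 has the highest share of miR-135a-1-3p, at 58.6%.

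miRNAs encoded near the precursors were compared next. mmu-let-7g-5p, whose precursor lies 24627 bases from Mir135a-1 on the same strand in an intron of Wdr82, had a log2 fold change of -0.30 (SE 0.25, adjusted p = 0.504 in edgeR). mmu-miR-1251-5p, whose precursor lies 64955 bases from Mir135a-2 on the same strand (GRCm38.p6), was lower in males at -1.56 (SE 0.40, adjusted p = 0.0115 in edgeR). It had 30.0, 32.0 and 79.4 CPM in female libraries 1 to 3 and 18.4, 17.7 and 16.0 CPM in male libraries 1 to 3, without overlap. The passenger arms mmu-let-7g-3p and mmu-miR-1251-3p did not pass (adjusted p = 0.984 and 0.967 in edgeR), each with no reads in at least 1 library, so 1 of 4 neighbours passed, lower in males, against 5.27% of all miRNAs. With the GC offset mmu-let-7g-5p had 0.21 and mmu-miR-1251-5p had -1.78 (adjusted p = 0.0038 in edgeR).

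A list of 14 miRNAs known for cortex development and neuron migration gave the setting of the family in the forebrain. The list was chosen with earlier results of these data known, so its count of calls is a description only. Of these, 5 of 14 passed the test and all 5 were lower in males, against 8.48% of all miRNAs passing and 5.27% lower in males. The log2 fold change was negative for 8 of the 14 and positive for 6, none of which passed, with miR-34a-5p (0.50) and miR-134-5p (0.47, without overlap between the sexes) the highest. The median was -0.23 against -0.02 over all miRNAs. Those past the test were miR-137-3p (-1.55, adjusted p = 0.00027 in edgeR), which acts in neuron maturation, and miR-9-3p (-1.20, adjusted p = 0.0051 in edgeR), an arm of the neural progenitor miRNA miR-9. The others were miR-138-5p (-0.99, adjusted p = 0.0492 in edgeR), which is known for dendritic spine size, miR-22-3p (-0.94, adjusted p = 0.0089 in edgeR) and miR-218-5p (-0.82, adjusted p = 0.0190 in edgeR), a miRNA of motor neurons and of other neurons. Both 5p arms of the miR-135 family had log2 fold changes within the range of these 5. With the GC offset, 3 of the 5 still passed, while miR-9-3p had -0.51 (adjusted p = 0.383 in edgeR) and miR-218-5p had -0.33 (adjusted p = 0.438 in edgeR). miR-137-3p had -0.94 in that fit, beside -0.53 for mmu-miR-135a-5p, and the median of the 13 in the fit was -0.03.

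The level of mmu-miR-135a-5p across the 6 libraries was most like that of mmu-miR-340-5p among 548 other miRNAs that averaged 100 or more reads (Pearson r = 0.998 of TMM-scaled log2 CPM, a description over 6 libraries of 2 sexes). It was followed by miR-369-3p (0.988), miR-384-3p (0.986), miR-376c-3p (0.983) and miR-10b-3p (0.982), the last of which is on the hindbrain and spinal cord list. For mmu-miR-135b-5p the order was miR-340-5p (0.999), miR-384-3p (0.989), miR-376c-3p (0.989), miR-382-3p (0.988) and miR-10b-3p (0.984). All 6 of these miRNAs were picked for levels that run like those of arms lower in males, so a shared direction follows from the choice. They had negative log2 fold changes, from -2.38 to -0.84, and passed the test. Like mmu-miR-135a-5p, several were poor in GC, with 23.8% in miR-369-3p, 27.3% in miR-340-5p and miR-384-3p, 36.4% in miR-382-3p and 40.9% in miR-10b-3p. With the GC offset, which covered 5 of the 6, miR-384-3p (-0.66) and miR-10b-3p (-2.001) still passed, miR-340-5p had -0.47 and miR-382-3p -0.37 without passing, and the sign of miR-369-3p turned to 0.24.

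Between the members, mmu-miR-135a-5p and mmu-miR-135b-5p had r = 0.998 to each other over the 6 libraries. Whether reads counted for both 5p arms entered this value was not tested. mmu-miR-135a-5p had r = -0.0336 to mmu-miR-135a-1-3p and -0.0753 to mmu-miR-135a-2-3p, the arms of its own precursors. mmu-miR-135b-5p had r = 0.639 to mmu-miR-135b-3p. Libraries of a sex share the difference between the sexes, which enters each of these values.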

How the data were processed

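Small RNA of 6 whole-brain libraries (3 female, 3 male) was examined. The authors trimmed adaptors with cutadapt 1.15, mapped reads with Bowtie 1.2.1 in the miRDeep2 workflow to miRBase 21 and mm9, and deposited raw counts of known mature miRNAs per library. How reads shared by the miR-135a precursors were counted is not given in the sources used here. Reads of different miRNAs also depend on library chemistry, so levels were compared between members only as read counts.

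miRNAs with at least 10 reads over all libraries were tested for sex with edgeR 4.0.16 (limma 3.58.1, R 4.3.3), using TMM, a quasi-likelihood test and Benjamini-Hochberg adjustment at 0.05. The study's methods use DESeq2 with RUVr, which was run as an alternative (DESeq2 1.42.0, 1 factor), as were other scalings, filters, an edgeR fit with 1 RUVr factor, a replicate block, an offset for GC content (loess, span 0.75), and leaving out each library. The code was tested on simulated data. In counts simulated without a GC trend, 4.42% of edgeR calls were false, 19.8% of DESeq2 calls and 22.5% with DESeq2 and 1 RUVr factor. Of the miRNAs changed in that simulation, edgeR recovered 33.6%, DESeq2 42.5% and DESeq2 with 1 RUVr factor 44.9%. With a GC trend between the sexes added, 16.1% of edgeR calls were false, and 4.88% with the GC offset. Calls of miRNAs moved by the added trend alone were counted as false. The simulation therefore cannot tell where the GC relation of the real libraries arose. Ratios were compared by exact permutation tests. Replicate numbers were not used to pair libraries: the correlation of deviations of same-numbered libraries was -0.0801, 0.0289 and 0.158, and more than 0.1 was required of each. Named miRNAs were all members, 4 encoded near the precursors, up to 5 of 14 forebrain miRNAs (those past the threshold first), any miRNA sharing a seed, and the 5 most alike per 5p arm. The members and lists were chosen with earlier results of these data known. Sequences came from RefSeq (GRCm38.p6), for 951 of 1120 tested miRNAs (84.9%). Total reads per library ranged from 14802675 to 59362011.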

Additional observations from a re-analysis of the deposited data

How the results depend on the processing

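Each 5p arm had at least 14618 reads per library, so its precision was set by 3 pools per sex. Of 16 alternatives, mmu-miR-135a-5p kept its call in 15. Its adjusted p there ranged from 4.4e-16 (DESeq2 with 1 RUVr factor) to 0.0452 (edgeR, GC offset with replicate block). The call was lost with the GC offset alone (adjusted p = 0.0880 in edgeR). mmu-miR-135b-5p kept its call in all 14 that include it. With the GC offset mmu-miR-135a-5p had -0.53 and 0 members passed; since mmu-miR-135b-5p is not in that fit, only 4 members were tested there. Signs that turned, all far from the threshold, were mmu-miR-135a-2-3p with library totals (0.058), DESeq2 with 1 RUVr factor (0.015), no filter (0.011), the GC offset with replicate block (0.012), without female library 2 (0.10) and without male library 1 (0.0047), and mmu-miR-135a-1-3p and the share of its reads without female library 2 (0.19 and 1.53 points). With a library left out, mmu-miR-135a-2-3p ranged from -0.21 to 0.10, mmu-miR-135a-1-3p from -0.62 to 0.19, and the share of mmu-miR-135a-1-3p differed by -5.72 to 1.53 points. Over all miRNAs, 245 passed with DESeq2 and 1 RUVr factor, 223 with edgeR and 1 RUVr factor, and 30 to 203 with a library left out (30 without male library 1, 60 without female library 3 and 203 without female library 2). The cause of these changes was not tested.

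The replicate block, though numbers were not shown to pair libraries, gave -1.32 (adjusted p 2.7e-05 in edgeR) for mmu-miR-135a-5p and -1.21 for mmu-miR-135b-5p, with 92 calls over all miRNAs. The GC offset with replicate block gave -0.53 for mmu-miR-135a-5p (adjusted p 0.0452 in edgeR), so 1 member passed. Same-numbered libraries were not always the most alike.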
